A study of Mus musculus with 15 samples.

Results

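The genes described here are enzymes of cholesterol synthesis in mouse liver. They were taken from a fixed list of 7 names, Hmgcs1, Idi1, Fdps, Fdft1, Sqle, Lss and Cyp51, out of 37991 identifiers in the count table. An identifier could be matched for 6 of the 7, and all 6 passed the filter on low counts together with 14258 genes in total. Hmgcs1, which makes HMG-CoA from acetyl-CoA units in the cytosol, had no entry in the annotation used and was not analysed here.

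RNA was sequenced from whole livers of female C57BL/6 mice in 3 groups of 5 animals, with 1 animal per library. Young S6K1 WT mice were 90 d old, old S6K1 WT mice were 600 d old, and old S6K1 KO mice were 600 d old and carried a germline deletion of S6K1 in every tissue. S6K1, the product of Rps6kb1, is a ribosomal protein S6 kinase downstream of mTORC1. The wild-type and knockout mice came from heterozygous breeding and ate the same chow without restriction, and a young KO group is not among the samples, so an effect of the deletion at 90 d cannot be given. Libraries held between 21801754 and 38065359 counts. Rps6kb1 lay between 15.2 and 20.8 CPM (counts per 1000000 counts of a library) in the 5 old KO livers and between 33.3 and 45.4 CPM in the 10 WT livers, and its log2 fold change between old KO and old WT was -1.17 (SE 0.10, edgeR quasi-likelihood test with Benjamini-Hochberg adjusted p = 8.54e-06). Hepatocyte markers made up 74344 to 139141 CPM per library when summed over the 7 that were measured, and the 5 adipocyte markers summed to at most 0.745 CPM in any library. CPM values here are scaled by the trimmed mean of M values (TMM).

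Cholesterol is built from acetyl-CoA by way of mevalonate, isoprenoid diphosphates, squalene and lanosterol, and the liver is among the main sites of this synthesis in the body. Most enzymes of the route are controlled together by SREBP2, a transcription factor that is kept in the endoplasmic reticulum by Scap and the Insig proteins when sterols are plentiful and is cut free in the Golgi by the proteases Mbtps1 and Mbtps2 when they are scarce. The active form binds sterol response elements in promoters, usually beside boxes for NF-Y and Sp1. Insig1, a retention factor, is itself an SREBP target.

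Promoter sequence from RefSeq (GRCm38.p6) was given for 4 of the 7 genes. It is shown for the 3 of them that were also measured. All 3 hold an NF-Y box (CCAAT) close to the start, and whether this box bears on their expression across livers was not tested. Each sequence is the 250 bases before the annotated start of transcription, 5′ to 3′ on the gene's strand, and capitals mark CCAAT, written ATTGG where the box is on the opposite strand. The windows are chr5:4104698-4104947 on the minus strand for Cyp51, chr10:76531355-76531604 on the plus strand for Lss and chr13:8885356-8885605 on the plus strand for Idi1.
Cyp51: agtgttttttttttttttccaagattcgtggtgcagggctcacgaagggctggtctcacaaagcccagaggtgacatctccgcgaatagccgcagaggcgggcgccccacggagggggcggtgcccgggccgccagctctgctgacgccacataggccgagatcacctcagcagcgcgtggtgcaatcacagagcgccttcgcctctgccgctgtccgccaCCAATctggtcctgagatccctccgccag
Lss: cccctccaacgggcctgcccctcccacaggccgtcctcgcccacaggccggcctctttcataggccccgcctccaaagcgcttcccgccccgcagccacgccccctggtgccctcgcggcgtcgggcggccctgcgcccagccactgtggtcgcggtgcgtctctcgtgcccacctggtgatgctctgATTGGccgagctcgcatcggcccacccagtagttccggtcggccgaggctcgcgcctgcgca
Idi1: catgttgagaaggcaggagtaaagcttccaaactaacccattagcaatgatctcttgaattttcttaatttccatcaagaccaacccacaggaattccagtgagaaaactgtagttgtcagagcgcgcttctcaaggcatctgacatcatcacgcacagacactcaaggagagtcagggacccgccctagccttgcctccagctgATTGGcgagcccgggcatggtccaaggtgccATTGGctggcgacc
CCAAT began at position -29 in Cyp51, -62 in Lss and -45 and -14 in Idi1. Both strands were searched from 250 bases before to 50 bases after the start, and 37.4% of all 32851 promoters of that length held CCAAT. The Sp1 box GGGCGG, not capitalised, began at -135 in Cyp51, at -166 and -127 in Lss and at -69 in Idi1, against 35.7% of all promoters with at least 1 copy. The sterol response element core was searched as TCACCCCAC, which 0.551% of all promoters hold, and with any base at N as TCACNCCAC, which takes in the former and which 1.24% hold. Neither exact form occurred in these windows of Cyp51, Lss and Idi1, whereas the Hmgcs1 window held TCACCCCAC at -137. Elements that differ from these forms were not searched for, so their absence is not shown. The E-box CACGTG, present in 7.15% of all promoters, occurred in none of the 4. Sqle, Fdps and Fdft1 are named only.

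With age in WT mice, 4 of the 6 genes (Fdps, Fdft1, Sqle and Cyp51) rose to 2.23- to 3.47-fold of the young level and passed the test, while Idi1 and Lss did not. In old S6K1 KO mice all 6 were higher still on average, at 1.56- to 1.95-fold the old WT level, but none of these differences passed the test. The livers of each old group spread over a range wider than the difference between the old group means. Old KO against young WT, in which age and genotype both differ, gave 2.45- to 6.73-fold higher expression, and all 6 passed. These 3 comparisons share libraries, since old WT enters the first and the second, so their values are set side by side below and not treated as independent. Over all genes tested, 9.92% were called higher and 8.91% lower with age in WT mice, 0.112% higher and 0.421% lower in old KO against old WT, and 12.0% higher and 11.3% lower in old KO against young WT. The median log2 fold change of the 6 genes was 1.28 with age, 0.73 between old genotypes and 1.99 between old KO and young WT, and that of all tested genes was 0.01, 0.00 and -0.01.

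**Figure D1:**
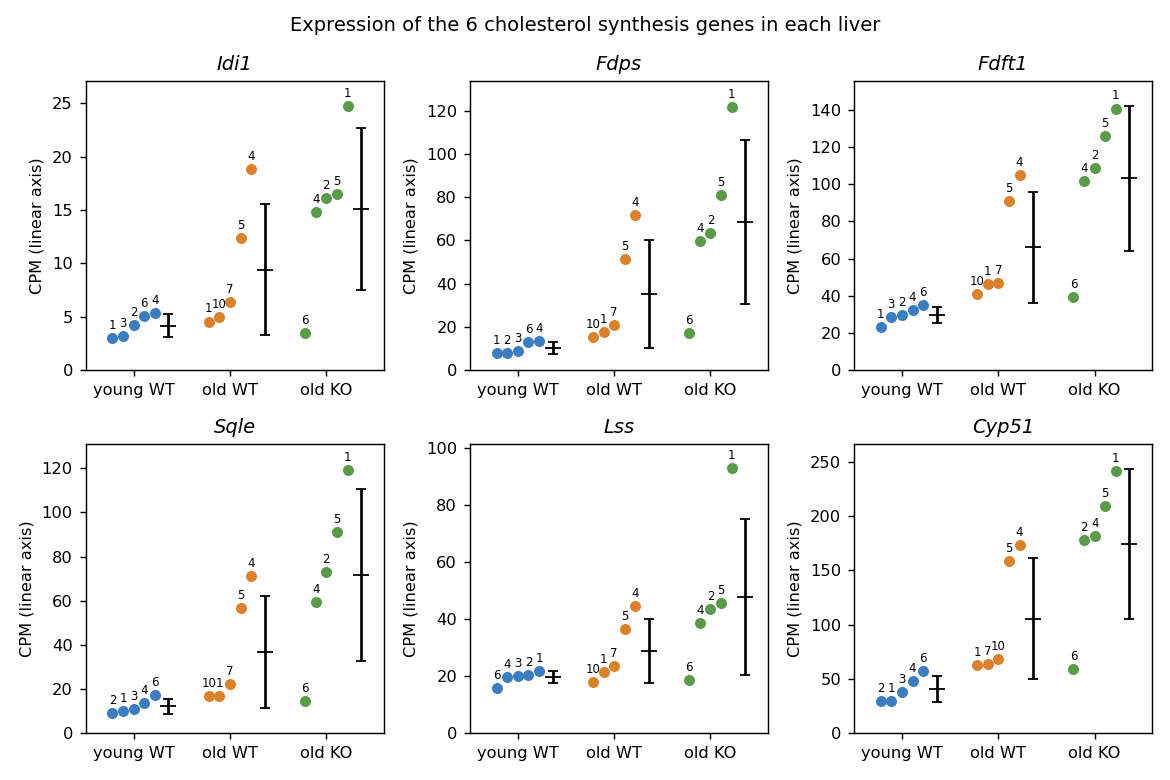
Expression of the 6 genes in each liver in TMM-scaled CPM on a linear axis, with points labelled by animal number and bars giving mean ± SD (n = 5). Old KO 1 was the highest liver for every gene, old WT 4 and 5 lay apart from the other old WT livers, and old KO 6 lay near the lower old WT livers.

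Idi1 (ENSMUSG00000058258, chr13:8884852-8891641, plus strand, NCBIM37), the isomerase that supplies dimethylallyl diphosphate for chain building, was at 2.97, 4.21, 3.19, 5.33 and 5.09 CPM in young WT livers 1, 2, 3, 4 and 6. Old WT livers 1, 4, 5, 7 and 10 held 4.56, 18.8, 12.4, 6.38 and 4.96 CPM, and old KO livers 1, 2, 4, 5 and 6 held 24.7, 16.1, 14.8, 16.5 and 3.48 CPM. Livers 4 and 5 were thus high among old WT, all but liver 6 were high among old KO, and each pair of groups overlapped. The log2 fold change with age was 1.18 (SE 0.44, 95% interval 0.25 to 2.12), which did not pass the test (edgeR adjusted p = 0.0709), and that between old genotypes was 0.69 (SE 0.43, edgeR adjusted p = 0.563). Old KO exceeded young WT by 1.87 (SE 0.44, edgeR adjusted p = 0.00725).

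Fdps (ENSMUSG00000059743, chr3:88897514-88905881, minus strand) makes farnesyl diphosphate, from which sterols, ubiquinone, dolichol and protein prenyl groups all branch. It was at 8.0, 8.03, 8.74, 13.3 and 13.0 CPM in young WT, at 17.7, 71.6, 51.3, 21.1 and 15.2 CPM in old WT, and at 122, 63.5, 59.8, 81.1 and 17.1 CPM in old KO livers, in the same order of animals as for Idi1. Every old liver, of either genotype, exceeded every young liver, while the old groups overlapped from 17.1 to 71.6 CPM. Fdps rose by 1.79 on the log2 scale with age (SE 0.47, 95% interval 0.79 to 2.80, edgeR adjusted p = 0.0161). Between old genotypes the difference was 0.96 (SE 0.45, 95% interval -0.0039 to 1.92, edgeR adjusted p = 0.432), and old KO exceeded young WT by 2.75 (SE 0.49, edgeR adjusted p = 0.00127), the largest change of the 6.

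Fdft1 (ENSMUSG00000021273, chr14:63763990-63796630, minus strand), squalene synthase, commits farnesyl diphosphate to sterols. Young WT livers held 23.1, 29.7, 28.3, 32.2 and 34.9 CPM, old WT livers 46.5, 105, 90.9, 46.7 and 40.9 CPM, and old KO livers 141, 108, 102, 126 and 39.2 CPM. No old liver fell within the young range, and old KO 6 was below every old WT liver. Fdft1 rose by 1.15 with age on the log2 scale (SE 0.31, edgeR adjusted p = 0.0166), differed by 0.65 between old genotypes (SE 0.30, 95% interval 0.01 to 1.28, unadjusted p = 0.0474, edgeR adjusted p = 0.422) and was higher by 1.80 in old KO than in young WT (SE 0.31, edgeR adjusted p = 0.00108). Its exons share 769 bases with Ctsb on the opposite strand.

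Sqle (ENSMUSG00000022351, chr15:59146632-59162747, plus strand) encodes squalene epoxidase, a rate-limiting, oxygen-using step of the sterol part of the route. It was at 10.1, 8.82, 10.8, 13.6 and 17.1 CPM in young WT livers, at 16.8, 71.1, 56.6, 22.2 and 16.7 CPM in old WT livers and at 119, 73.2, 59.4, 90.9 and 14.3 CPM in old KO livers. Old WT 1 and 10 and old KO 6 fell below young WT 6, the highest young liver, so the young group overlapped both old groups. Sqle rose by 1.61 on the log2 scale with age (SE 0.49, edgeR adjusted p = 0.0307). The difference between old genotypes was 0.96 (SE 0.47, edgeR adjusted p = 0.448), and that between old KO and young WT was 2.57 (SE 0.50, edgeR adjusted p = 0.00219).

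Lss (ENSMUSG00000033105, chr10:75994333-76019883, plus strand), lanosterol synthase, closes the sterol rings, and it had the smallest difference with age of the 6. Young WT livers held 21.7, 20.3, 20.1, 19.8 and 15.9 CPM, old WT livers 21.3, 44.4, 36.6, 23.6 and 17.8 CPM, and old KO livers 92.9, 43.4, 38.6, 45.6 and 18.5 CPM. Old WT 1 and 10 and old KO 6 lay inside the young range. The log2 fold change with age was 0.56 (SE 0.32, 95% interval -0.12 to 1.24, edgeR adjusted p = 0.241), that between old genotypes 0.73 (SE 0.32, 95% interval 0.06 to 1.41, unadjusted p = 0.0353, edgeR adjusted p = 0.380), and that between old KO and young WT 1.29 (SE 0.32, edgeR adjusted p = 0.00998). Its exons share 381 bases with 4930483K19Rik on the opposite strand.

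Cyp51 (ENSMUSG00000001467, chr5:4081145-4104746, minus strand) encodes the demethylase that acts on lanosterol. Its values were 29.9, 29.6, 38.1, 48.0 and 57.2 CPM in young WT livers, 62.3, 174, 159, 63.4 and 68.7 CPM in old WT livers and 242, 178, 182, 210 and 58.9 CPM in old KO livers. The lowest old liver, old KO 6, was just above the highest young liver. Cyp51 rose by 1.38 on the log2 scale with age (SE 0.37, edgeR adjusted p = 0.0167), differed by 0.73 between old genotypes (SE 0.36, edgeR adjusted p = 0.458) and was higher by 2.10 in old KO than in young WT (SE 0.37, edgeR adjusted p = 0.00130).

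The ranges of old WT and young WT did not overlap for 3 of the 6 genes (Fdps, Fdft1 and Cyp51), and all 3 were higher in old WT, against 5.78% of all tested genes higher and 5.67% lower without overlap. The same 3 genes were higher without overlap in old KO than in young WT, against 7.32% higher and 6.56% lower among all genes. Old KO and old WT overlapped for every gene of the 6, against 1.12% of all genes higher and 2.08% lower without overlap. The count of 0 of 6 for old KO against old WT came from edgeR, and DESeq2 and limma voom also called 0, while 2 of the 6 (Fdft1 and Lss) had an unadjusted p under 0.05.

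**Figure D2:**
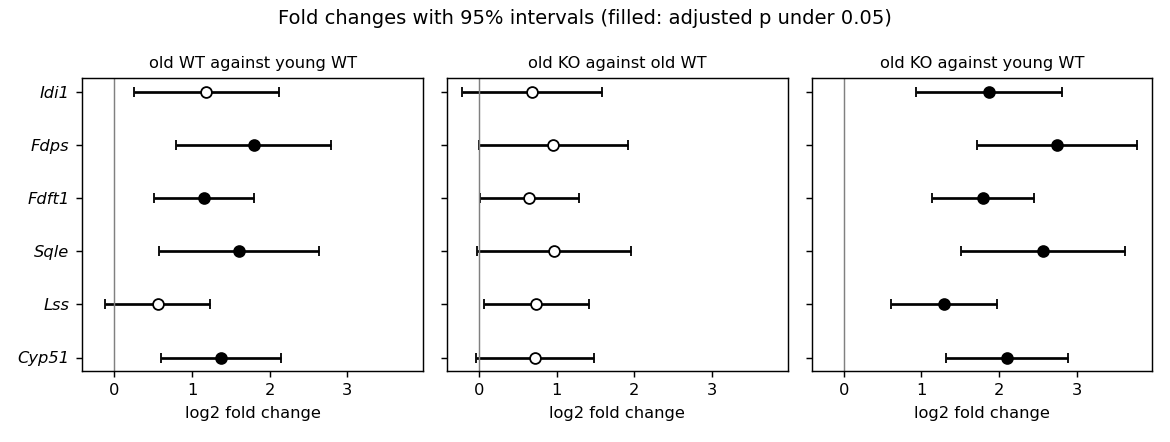
Log2 fold changes of the 6 genes with 95% intervals from the edgeR fit for each of the 3 comparisons, filled where the adjusted p over all genes was under 0.05. All 18 estimates are above 0, 4 of 6 are filled for old WT against young WT, 0 of 6 for old KO against old WT and 6 of 6 for old KO against young WT.

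The call for Sqle with age was sensitive to single livers: it was lost without young WT 1 (edgeR adjusted p = 0.0722), young WT 2 (0.0716), young WT 3 (0.0587), young WT 4 (0.0531), old WT 4 (0.0916) or old WT 5 (0.0775). Fdps narrowly lost its call without old WT 4 (edgeR adjusted p = 0.0504), and Idi1 passed without old KO 6 (edgeR adjusted p = 0.0284), which enters the estimate of spread.

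Divided by the length of each gene's longest transcript, mean levels in young WT livers ran from 1.45 CPM per kilobase for Idi1 through 4.19 for Lss, 4.38 for Sqle, 8.29 for Fdps and 10.3 for Cyp51 to 10.4 for Fdft1. Neighbours in this order that differed by less than the larger of their SDs were Lss and Sqle, Fdps and Cyp51, and Cyp51 and Fdft1. In old WT livers the order changed at its upper end and levels ran Idi1 3.29, Lss 6.16, Sqle 13.3, Fdft1 23.1, Cyp51 26.8 and Fdps 28.7 CPM per kilobase, and in old KO livers Idi1 5.28, Lss 10.2, Sqle 25.9, Fdft1 36.1, Cyp51 44.3 and Fdps 55.7. All neighbours but Idi1 and Lss in old WT, and all but Lss and Sqle in old KO, differed by less than the larger of their SDs. Fdps had the highest mean per length in both old groups, though its SD of 20.2 in old WT and 30.7 in old KO covers Cyp51 and Fdft1. Group means ± SD (n = 5) in CPM were 4.16 ± 1.07, 9.42 ± 6.12 and 15.1 ± 7.59 for Idi1, the lowest of the 6 as counted, and 40.6 ± 12.0, 105 ± 55.9 and 174 ± 69.4 for Cyp51, the highest in CPM, in young WT, old WT and old KO livers respectively. Idi1, Fdps and Fdft1 have near-identical copies elsewhere in the genome, and how reads with several matches were counted is not known. The places of these genes in the orders above are therefore uncertain.

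Variation between animals of 1 group was large for these genes. The within-group SD of log2 CPM was 0.83 for Idi1, 0.86 for Fdps, 0.57 for Fdft1, 0.92 for Sqle, 0.58 for Lss and 0.68 for Cyp51, with a median of 0.76, against a median of 0.23 over all tested genes. Sqle was at the 98.6th percentile of all genes for this spread and Fdft1, the lowest of the 6, at the 90.5th. Across all 15 livers the highest value exceeded the lowest 15.2-fold for Fdps, 13.5-fold for Sqle, 8.31-fold for Idi1, 8.18-fold for Cyp51, 6.08-fold for Fdft1 and 5.85-fold for Lss. Within young WT alone these ratios were between 1.37-fold for Lss and 1.94-fold for Sqle. Within old KO they were between 3.59-fold for Fdft1 and 8.32-fold for Sqle.

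**Figure D3:**
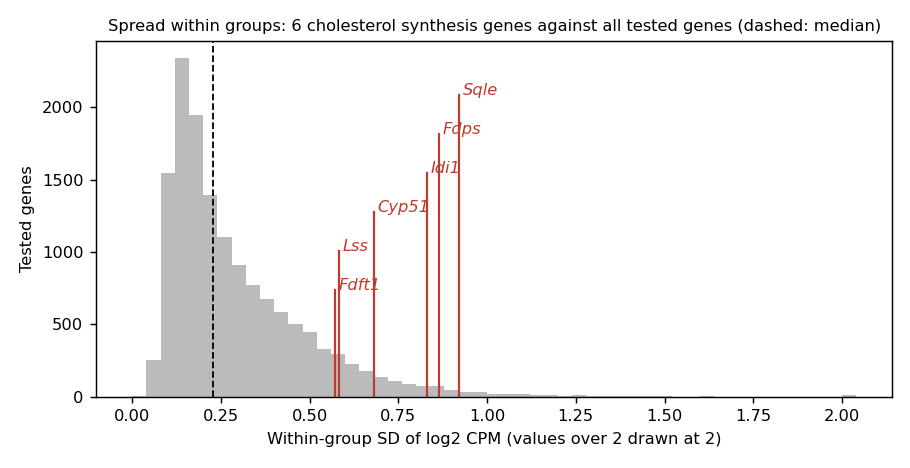
Histogram of the within-group SD of log2 CPM over all 14258 tested genes, with a red line at the SD of each of the 6 genes; line heights only separate the names. The 6 genes lie between 0.57 and 0.92, right of the dashed median of 0.23.

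The same livers were high for every gene. The 6 highest libraries were identical for 6 of 6 genes: old KO 1, 2, 4 and 5 and old WT 4 and 5. Old KO 1 ranked highest for all 6, old WT 5 ranked sixth for all 6, and old KO 6 ranked between 9 and 13 of 15. After each group's mean was subtracted, the 15 gene pairs had Pearson r between 0.782 and 0.988 over the 15 libraries, which is a description, since all genes are read from the same libraries. Fdps and Sqle were the most alike (r = 0.988) and Lss and Cyp51 the least (r = 0.782). The 10 pairs without Lss had r of at least 0.949, and the 5 pairs with Lss had r of at most 0.886. In young WT livers Lss was lowest in liver 6, where Fdft1, Sqle and Cyp51 were highest.

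Genes most alike to the 6 were sought among 12119 tested genes with a mean of at least 1 CPM, by Pearson r of the group-centred log2 CPM with the mean of the 6 standardised profiles over 15 libraries. Mvd, which makes isopentenyl diphosphate, had r = 0.977, and Msmo1, listed as Sc4mol, a sterol methyl oxidase, had r = 0.972. Acat2, which condenses acetyl-CoA, followed at 0.969, Pmvk, phosphomevalonate kinase, at 0.961 and Nsdhl, a sterol dehydrogenase, at 0.952. The list went on with 0610007P14Rik at 0.943 and Mmab, an enzyme of cobalamin metabolism, at 0.935. In all, 11 genes reached r = 0.9 and 54 reached 0.8. Per liver, Mvd was at 1.11 to 1.87 CPM in young WT, at 3.25, 9.67, 7.87, 2.82 and 2.65 CPM in old WT livers 1, 4, 5, 7 and 10 and at 32.1, 13.1, 11.8, 14.0 and 2.27 CPM in old KO livers 1, 2, 4, 5 and 6, with the same livers high as for the 6 genes.

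The list of other enzymes of the route held 14 genes, all tested. Of these, 7 rose and 1 fell with age in WT livers, 0 were called between old genotypes (DESeq2 called 4, all higher), and 11 rose in old KO against young WT. Mvd rose by 1.83 with age on the log2 scale (SE 0.54, edgeR adjusted p = 0.0267), Msmo1 by 1.69 (SE 0.51, edgeR adjusted p = 0.0307), Nsdhl by 1.37 (SE 0.33, edgeR adjusted p = 0.0106) and Acat2 by 0.94 (SE 0.18, edgeR adjusted p = 0.00262). Hsd17b7, a sterol ketoreductase, named here after its value was seen, was the only 1 of the 14 that fell with age, and it fell by 0.41 (SE 0.14, edgeR adjusted p = 0.0464). The list medians were 0.68, 0.56 and 1.13 for the 3 comparisons. The number called with age dropped to 3 without young WT 1, 2 or 3, to 5 without young WT 4 and to 4 without old WT 4 or 5.

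Among the 7 regulators of SREBP processing, transcripts of the retention factors moved in opposite directions with age. Insig1 averaged 51.6 ± 19.4 CPM in young WT, 146 ± 66.7 in old WT and 302 ± 187 in old KO livers (SD, n = 5), and rose by 1.5 on the log2 scale with age (SE 0.41, edgeR adjusted p = 0.0197) and by 2.55 in old KO against young WT (SE 0.43, edgeR adjusted p = 0.000890). Insig2 fell by 1.42 with age (SE 0.27, edgeR adjusted p = 0.00303) and fell by 1.53 in old KO against young WT (SE 0.27, edgeR adjusted p = 0.00141). Its mean was 1061 ± 397 CPM in young livers, 396 ± 123 CPM in old WT livers and 368 ± 130 CPM in old KO livers. Every old liver was below every young liver for Insig2, whose lowest young value was 682 CPM and highest old value 600.4 CPM.

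Srebf2, the gene of SREBP2, was at 35.2 to 48.0 CPM in young WT livers, at 57.4, 68.2, 75.8, 41.2 and 42.7 CPM in old WT and at 83.0, 79.8, 68.0, 92.8 and 44.0 CPM in old KO livers, in the order of animals given above. Old WT 7 and 10 and old KO 6 lay inside the young range. Its log2 fold change was 0.52 with age (SE 0.19, edgeR adjusted p = 0.0657) and 0.36 between old genotypes (SE 0.19, edgeR adjusted p = 0.484), and it rose by 0.89 in old KO against young WT (SE 0.19, edgeR adjusted p = 0.00419). Srebf1, whose products act mainly on fatty acid genes, had values of 0.57, 0.37 and 0.94 for the same comparisons, none past the test (edgeR adjusted p = 0.301, 0.773 and 0.0794). Scap differed by at most 0.06 in any of them (edgeR adjusted p of at least 0.701). Mbtps1 rose by 0.24 with age (SE 0.06, edgeR adjusted p = 0.0147), and Mbtps2 fell by 0.49 in old KO against young WT (SE 0.11, edgeR adjusted p = 0.00544). Of the 7, 2 rose and 1 fell with age, 0 were called between old genotypes, and 3 rose and 2 fell in old KO against young WT. Without old WT 7, the number called with age was 5, and SREBP protein and its cleavage were not measured.

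**Figure D4:**
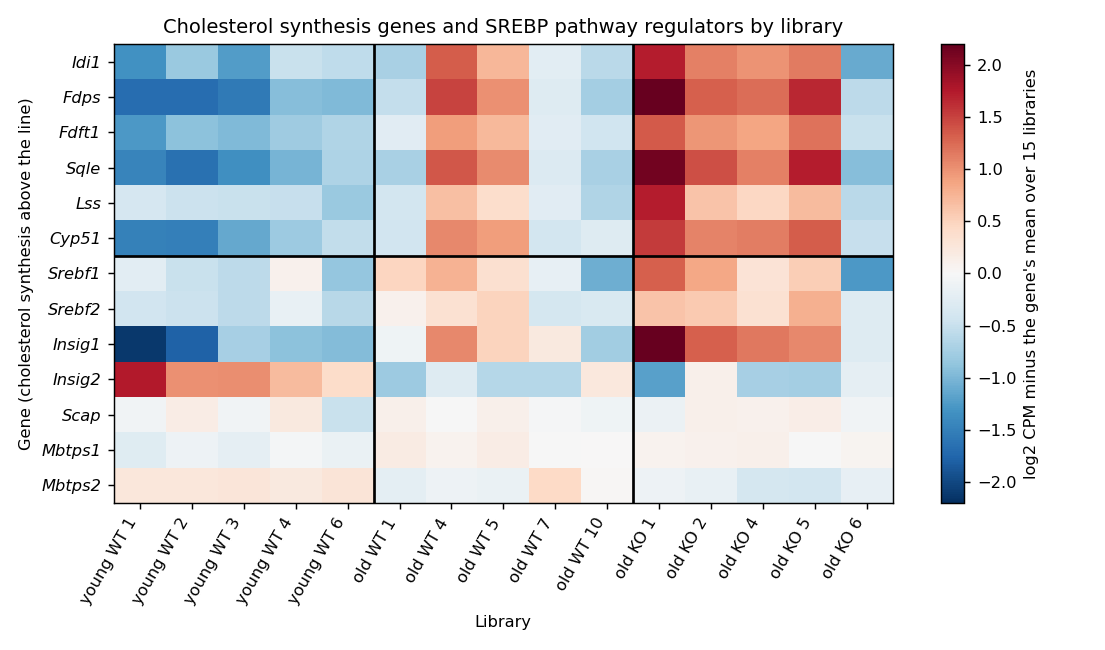
Log2 CPM minus each gene's mean over the 15 libraries, for the 6 cholesterol synthesis genes (above the horizontal line) and 7 SREBP regulators, with vertical lines between young WT, old WT and old KO and values past the colour scale drawn at its ends. Old KO 1, 2, 4 and 5 and old WT 4 and 5 are red for all 6 genes and for Insig1, Insig2 is highest in young livers, and Scap is close to 0 throughout.

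Of 8 other genes listed here as SREBP2 targets, 3 rose with age and 0 fell, and 0 were called between old genotypes. In old KO against young WT, 6 rose and 1 fell, and the list medians were 0.50, 0.34 and 0.81. The list came from general knowledge and also holds genes of fatty acid metabolism, among them Fads1 and Elovl5. Whether SREBP2 acts on each of them in these livers was not tested. Stard4, a sterol carrier, rose by 1.04 with age (SE 0.26, edgeR adjusted p = 0.0123), Rdh11 by 0.67 (SE 0.22, edgeR adjusted p = 0.0475) and Fads1, a fatty acid desaturase, by 0.63 (SE 0.15, edgeR adjusted p = 0.00774). In old KO against young WT, Aacs, acetoacetyl-CoA synthetase, rose by 1.65 (SE 0.40, edgeR adjusted p = 0.00764), and the 1 that fell was Elovl5, a fatty acid elongase named after its value was seen, which fell by 0.87 (SE 0.19, edgeR adjusted p = 0.00487).

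Branches that draw on farnesyl diphosphate for other products had list medians near 0 (-0.06, 0.01 and -0.01). Of the 8 genes, 1 was called with age, Pdss1 of ubiquinone synthesis, which fell by 0.56 (SE 0.18, edgeR adjusted p = 0.0456), and 0 were called in the other comparisons. The Pdss1 call was lost without young WT 1, 2, 3 or 4, old WT 1, 4, 5 or 10, or old KO 2 or 4. Of 13 genes of cholesterol export, storage and bile acid synthesis, 1 rose and 4 fell with age, 0 were called between old genotypes, and 2 rose and 5 fell in old KO against young WT. The last count became 1 higher and 3 lower without young WT 6 or old KO 4, and the count between old genotypes became 1 without young WT 2, old WT 5 or old KO 1. Cyp8b1, an enzyme of cholic acid synthesis, fell by 1.48 with age (SE 0.27, edgeR adjusted p = 0.00231), and Mylip, a ubiquitin ligase induced by oxysterols, fell by 0.87 (SE 0.18, edgeR adjusted p = 0.00438). Cyp27a1, which oxidises the sterol side chain, fell by 0.58 (SE 0.15, edgeR adjusted p = 0.0149), while Soat2, which esterifies cholesterol, rose by 0.41 (SE 0.10, edgeR adjusted p = 0.00868).

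Fatty acid synthesis genes, largely targets of the Srebf1 product, numbered 10. Of these, 1 rose and 2 fell with age, 0 were called between old genotypes, and 3 rose in old KO against young WT, with list medians of -0.05, 0.19 and 0.39. With age, 1 was called without young WT 1 or 2 or old WT 1, 4 or 5, and in old KO against young WT 1 was called without old KO 1 and 5 (4 higher and 1 lower) without old KO 6. Scd1, a desaturase, rose by 1.65 with age (SE 0.35, edgeR adjusted p = 0.00475), and Acacb, an acetyl-CoA carboxylase, fell by 0.77 (SE 0.22, edgeR adjusted p = 0.0219). Among old WT livers Scd1 was at 4888 CPM in liver 7 and 4564 CPM in liver 10 against 2298 and 2851 CPM in livers 4 and 5, which were high for the 6 genes, and among old KO livers it was highest in livers 1 and 2, at 5210.3 and 5333 CPM, which were high for the 6 genes too.

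**Figure D5:**
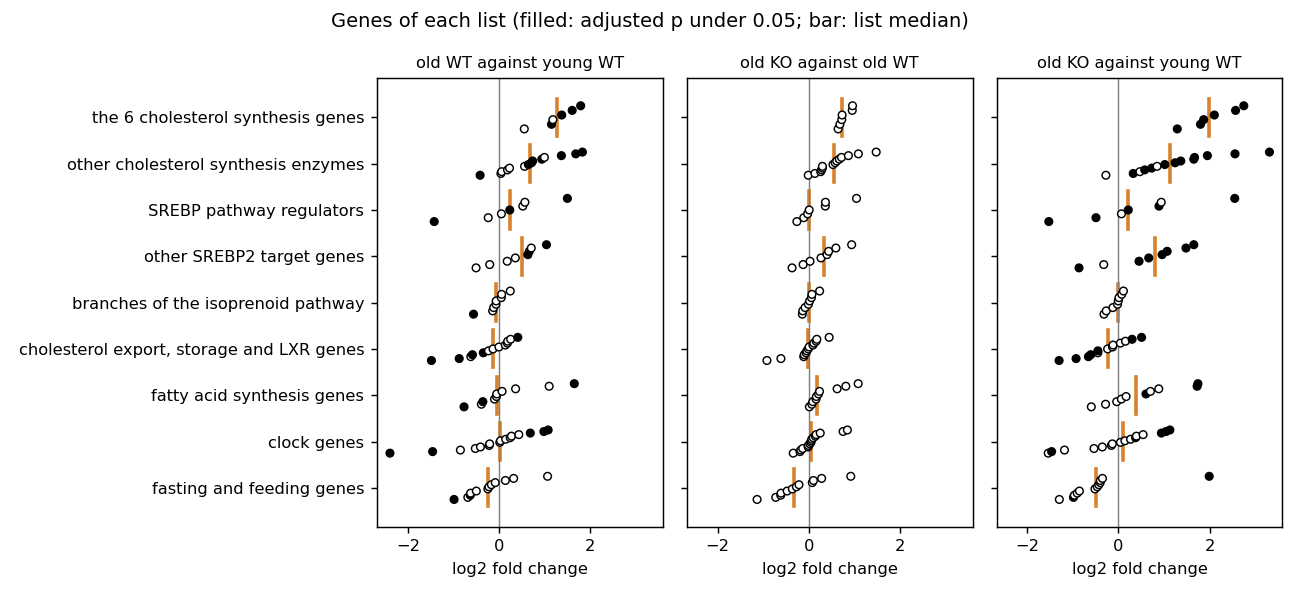
Log2 fold changes of the genes of each list in the 3 comparisons, filled where the adjusted p over all genes was under 0.05, with an orange bar at the list median. The 6 cholesterol synthesis genes have the highest median of the 9 lists in each panel (1.28, 0.73 and 1.99), and the isoprenoid branches lie near 0.

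Clock and feeding genes, which vary with the hour and the last meal, were read beside these results. Of 16 clock genes, 3 rose and 2 fell with age, among them Nfil3 by 1.08 (SE 0.22, edgeR adjusted p = 0.00382) and Npas2 by 0.99 (SE 0.21, edgeR adjusted p = 0.00499), while Ciart fell by 2.39 (SE 0.62, edgeR adjusted p = 0.0155) and Nr1d1 fell by 1.46 (SE 0.46, edgeR adjusted p = 0.0368). Clock genes called between old genotypes numbered 0, and 4 rose and 1 fell in old KO against young WT. The 5 clock genes called with age became 3 without young WT 2 or 4 or old WT 4, 7 or 10, and the 5 in old KO against young WT became 3 without young WT 2 or old KO 5 or 6. Of 12 fasting and feeding genes, 2 fell with age, Ppargc1a by 0.98 (SE 0.32, edgeR adjusted p = 0.0443) and Cpt1a fell by 0.63 (SE 0.14, edgeR adjusted p = 0.00749), 0 were called between old genotypes, and 1 rose and 1 fell in old KO against young WT, where Cpt1a fell by 0.99 (SE 0.14, edgeR adjusted p = 0.000347). The 2 feeding genes called with age became 1 without young WT 3, old WT 1, 4, 5 or 10, or old KO 2, 4 or 5, and the 2 in old KO against young WT became 5 (1 higher and 4 lower) without old KO 6. The part of clock and feeding genes in the results for the 6 genes was not tested.

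Some markers of other cell types were also called between groups. In whole liver, fewer cells of a type cannot be told apart from less RNA per cell. Among all tested genes, 9.92% were called higher and 8.91% lower with age, and the counts below are to be read beside these shares. The shares were 0.112% higher and 0.421% lower in old KO against old WT, and 12.0% and 11.3% in old KO against young WT. Of 9 macrophage markers, 1 rose with age (Lyz2), and 4 fell in old KO against old WT (Cd5l, Clec4f, Vsig4 and Cd68) and 4 in old KO against young WT, and their summed level was 180 to 410 CPM in young WT, 233 to 582 CPM in old WT and 142 to 214 CPM in old KO livers. Cd5l fell by 1.47 in old KO against old WT (SE 0.26, edgeR adjusted p = 0.0247). The 4 calls between old genotypes became 0 without old WT 1 or 4 or old KO 2, 4, 5 or 6, 1 without old WT 10, and 2 without young WT 4 or old WT 7. The 1 with age became 0 without young WT 1, 2 without young WT 6, old WT 5 or 7 or old KO 1, and 3 without young WT 3 or old KO 6. Of 9 lymphocyte markers, 4 rose with age (Cd8a, Ms4a1, Nkg7 and Cd3e), and their sum was 8.85 to 24.6, 22.8 to 37.9 and 11.2 to 24.8 CPM in the 3 groups. The 4 calls became 1 without young WT 1 or old WT 5 and 2 without young WT 2 or 4 or old WT 1. Of 6 endothelial markers, 2 fell with age and 2 in old KO against young WT, and their sum was 155 to 288, 119 to 209 and 147 to 169 CPM. With age the endothelial count was 1 without young WT 3 or 4 or old WT 5, 7 or 10, and in old KO against young WT it was 5 without young WT 2, 4 without old WT 10 and 1 without young WT 3. Of 6 stellate cell and fibroblast markers, 1 rose with age, and 2 rose and 1 fell in old KO against young WT, with sums of 268 to 355, 215 to 377 and 217 to 384 CPM. The stellate call with age was lost without young WT 1, 2, 3 or 4, old WT 1, 5 or 7, or old KO 4 or 5, and became 2 without old WT 10, while the 3 in old KO against young WT became 0 without young WT 1, 3 or 4 or old KO 1, 4 or 5, and 1 without young WT 6 or old WT 4. Bile duct markers rose for 1 of 5 with age and 1 of 5 in old KO against young WT, with sums of 29.7 to 51.0, 38.7 to 106 and 38.5 to 94.7 CPM. The former call was lost without young WT 1 or 2 or old WT 5 or 7, and the latter without young WT 1, 2, 3 or 6 or old KO 1, 4 or 5. Of 7 hepatocyte markers, 2 fell with age and 1 rose in old KO against young WT. The 2 became 0 without old WT 5 and 1 without young WT 2 or old WT 1, and the 1 became 0 without young WT 1, 2 or 3 or old KO 4 or 5 and 2 without young WT 4. Adipocyte markers did not pass the filter, and Lep and Cfd were at 0 in all young livers. The part of these cell types in the results for the 6 genes was not tested.

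Some reads of 3 of the genes could also align elsewhere. The longest transcript of Idi1 matched copies of at least 95% identity at chr2:53553399-53555892 (99.3% identical over 86.5% of its length) and at chr5:87797121-87799562 (95.2%), that of Fdps at chr10:93241356-93242512 (98.8%) and at chr6:6685374-6686549 (95.9%), and that of Fdft1 at chr14:19363865-19365475 (97.4%), all in NCBIM37. Sqle, Lss and Cyp51 had 0 such copies. How reads with several matches were counted is not given in the sources used here, so the levels of Idi1, Fdps and Fdft1 are uncertain to that extent.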

How the data were processed

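Poly(A) RNA of whole liver was sequenced in 15 libraries, 5 per group. The authors aligned reads to mm9 with TopHat2 2.0.11 and counted them per gene with HTSeq, and the deposited values are raw counts per Ensembl gene. The libraries were made with a stranded mRNA kit, but the strand setting of HTSeq and the annotation are not given in the sources used here. DESeq2 1.18.1 and CASAVA are also named in the submitters' processing notes. Symbols and positions came from GENCODE M1 on NCBIM37, in which 786 of 37991 identifiers had no entry.

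Counts were analysed in edgeR 4.0.16 (R 4.3.3) with TMM scaling, filterByExpr and the quasi-likelihood test on all 15 libraries and 3 group means, with Benjamini-Hochberg adjustment over 14258 genes and a threshold of 0.05. The common biological coefficient of variation was 0.189. Per-library log2 CPM used a prior count of 2. The script was tested on simulated counts, for old WT against young WT only, with the same spread set for every gene. The cholesterol synthesis genes spread more than most genes, so the simulation does not show how the fit behaves for them. Alternatives were DESeq2 1.42.0, limma voom 3.58.1, other scalings and filters, a replicate block, each comparison's 10 libraries alone and leaving out each library. Copies were sought with minimap2 2.31. Of 143 list entries, 138 matched by symbol and 3 by older symbol (Msmo1 as Sc4mol, Ciart as Gm129, Adgre1 as Emr1), and 2 did not match (Hmgcs1 and Tf).

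The genes and lists were chosen with earlier results of these data known, the lists from general knowledge. Genes named are the 7 listed, Rps6kb1, 4 regulators (Srebf1, Srebf2, Insig1 and Scap), up to 4 genes per list and comparison with the largest changes among those past the threshold, and the 8 genes most alike to the 6, of which 1 is not reported here. The 30 pairs of libraries within groups differed by more than sampling noise (chi-square per degree of freedom of at least 18.2), so none was counted as a repeat. The study counts individual mice, and each library was 1 mouse.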

Additional observations from a re-analysis of the deposited data

How the results depend on the processing

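Every log2 fold change of the 6 genes was above 0 under all 23 alternatives, which gave 414 values for the 18 main values. The alternatives share libraries and are not independent. With age, limma voom called 2 of the 6 (Fdps adjusted p = 0.0524 and Sqle 0.0923 were lost) and the replicate block 0. Between old genotypes, 0 of 6 were called under every alternative. For old KO against young WT, 6 were called under every alternative except the block, which called 4 (Idi1 adjusted p = 0.0713, Lss 0.0540). Leaving out single libraries gave 2 to 5 of 6 called with age (2 without old WT 4), 0 to 0 between old genotypes and 6 to 6 for old KO against young WT, with medians of 1.03 to 1.44, 0.54 to 1.03 and 1.81 to 2.22 (main 1.28, 0.73 and 1.99). Over all genes, 2685, 76 and 3319 were called in the 3 comparisons. The block gave 899 with age and 6 between old genotypes, where DESeq2 gave 309 (90 higher and 219 lower) and limma voom 23. Without single libraries the counts were 1748 to 3284, 9 to 108 and 2460 to 3829. The count of 1748 arose without young WT 1, and that between old genotypes moved by over 1.5 times without young WT 4 (41), old WT 1 (10), 4 (9), 7 (37) or 10 (42), or old KO 2 (13), 4 (14), 5 (17) or 6 (13). The 9 pairs of libraries with the same animal number had correlations of deviations between -0.153 and 0.0770, against -0.267 to 0.355 in the 66 others. The same-numbered pairs thus lay within the range of the others, which cannot decide whether animals with the same number were paired in some way. The labels do not say what a shared number means, so the replicate block uses only a shared number. Young WT 3 and old WT 7 and 10 carry numbers that no other library has. Under the block these livers add nothing to the differences between groups, so it rests on fewer livers than the main fit. With age, list calls fell under the block to 1 other cholesterol synthesis enzyme, 0 regulators, 0 other SREBP2 targets and 0 genes of the isoprenoid branches. The 4 macrophage markers called between old genotypes became 1 under limma voom and 0 under the block. Among other alternatives that moved list calls, lymphocyte markers called with age numbered 0 under limma voom and 1 when every library had to hold 10 counts or more, macrophage markers called with age numbered 3 under DESeq2 and limma voom, in old KO against young WT, limma voom called 0 stellate and 0 bile duct markers and 1 fatty acid synthesis gene (DESeq2 5), and the Pdss1 call with age was lost under upper quartile scaling, without the filter on low counts and with 10 libraries alone. The cause of these shifts was not tested. The lowest count of any of the 6 genes in a library was 75.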

Other observations

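Within a library, the 6 genes did not keep fixed proportions across groups. Relative to the mean log2 CPM of the 6 in the same library, Fdps averaged -0.57 ± 0.13 in young WT, -0.14 ± 0.21 in old WT and 0.07 ± 0.13 in old KO livers (SD, n = 5), and Lss averaged 0.39 ± 0.40, -0.25 ± 0.26 and -0.38 ± 0.30. Sqle averaged -0.34 ± 0.18, -0.09 ± 0.21 and 0.09 ± 0.27 on the same scale, and Cyp51 1.40 ± 0.19, 1.55 ± 0.16 and 1.52 ± 0.17. These values are a description and the differences between groups were not tested.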
